A study of Homo sapiens with 8 samples.

Results

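The genes that encode the subunits and assembly factors of the proteasome were examined for promoter binding by 2 paralogous chromatin proteins, PHF20 and PHF20L1. They were chosen by symbol, as every GENCODE protein-coding gene with a name made of PSMA, PSMB, PSMC, PSMD, PSME, PSMF or PSMG and a number. This rule gave 48 of 20033 protein-coding genes. The rule itself uses no measured value, but the set was picked with earlier results of these data known. A gene was counted as bound when a final peak overlapped the promoter of any of its transcripts by at least 1 bp. The promoter was taken as the 1000 bp before and the 500 bp after a transcription start site (TSS) on hg38.

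The proteasome is the large protease that degrades ubiquitin-tagged proteins in the nucleus and cytosol of every human cell. Its barrel-shaped core is built of stacked rings of alpha subunits (PSMA), which gate the entrance, and beta subunits (PSMB), some of which cut the substrate. A regulatory cap sits on the core: its base holds the ATPases (PSMC) and scaffold proteins that unfold and thread the substrate, and its lid holds the PSMD subunits around the deubiquitinase PSMD14. PSME proteins are alternative activators, PSMF1 binds and inhibits the isolated core, and PSMG proteins are chaperones of core assembly. PHF20 and PHF20L1 are Tudor and PHD domain proteins that associate with the nonspecific lethal (NSL) complex, which holds the histone acetyltransferase KAT8 and acts at promoters of widely expressed genes.

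Chromatin immunoprecipitation sequencing (ChIP-Seq) was done with an antibody against the HA tag in U2OS, a human osteosarcoma cell line, and the labels name no further treatment. PHF20 was over-expressed with an N-terminal tag (N-3xHA, 2 ChIP libraries and 1 input library), and PHF20L1 with the tag at the N terminus (1 ChIP library) or at the C terminus (2 ChIP libraries), with 2 input libraries. The tagged proteins came from lentiviral vectors in cells that keep their own PHF20 and PHF20L1, and the cells were sorted for a fluorescent marker of the vector, so these are sites of over-expressed protein. The deposited lists hold the start and end of each final peak, 4147 for PHF20 and 723 for PHF20L1, with replicates combined and no height, read count or depth. No spread between replicates can be given, the 95% Wilson intervals below cover counting error only, and the cell line's markers cannot be checked with positions. A gene without a peak was not called at the thresholds used, and the protein may still have been there.

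The sequences around the start sites are shown first, because some of the bound genes, and a few unbound ones, hold the same short element there. Each line gives 100 bases of hg38, read 5′ to 3′ on the strand of the gene, from 76 bases before the canonical TSS to 23 bases after it. Capitals mark the 8-mer ACTTCCGG or its reverse complement CCGGAAGT, a sequence of the kind that ETS-family transcription factors recognize. Shorter or variant forms of such sites are not marked, also in the lines without capitals. The first 9 genes are those of the 22 PHF20-bound members with this 8-mer in the promoter sequence. The PHF20-bound members without it are not shown, so the lines do not give its frequency. PSMD8 carries it and had no peak, and PSMB5 and PSMB8, a constitutive catalytic subunit and its immunoproteasome counterpart, had neither the 8-mer nor a peak.
PSMD12 (chr17:67366554-67366653, minus strand): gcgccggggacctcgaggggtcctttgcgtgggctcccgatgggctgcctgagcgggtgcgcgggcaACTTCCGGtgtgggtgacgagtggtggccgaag
PSMD14 (chr2:161308349-161308448, plus strand): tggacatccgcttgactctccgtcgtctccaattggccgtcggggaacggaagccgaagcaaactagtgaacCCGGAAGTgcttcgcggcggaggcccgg
PSMB7 (chr9:124415419-124415518, minus strand): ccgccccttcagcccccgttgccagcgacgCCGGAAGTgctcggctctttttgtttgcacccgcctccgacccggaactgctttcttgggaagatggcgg
PSMC2 (chr7:103347567-103347666, plus strand): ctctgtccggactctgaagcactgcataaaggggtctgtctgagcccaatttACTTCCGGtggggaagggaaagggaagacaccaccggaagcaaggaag
PSMG3 (chr7:1570009-1570108, minus strand): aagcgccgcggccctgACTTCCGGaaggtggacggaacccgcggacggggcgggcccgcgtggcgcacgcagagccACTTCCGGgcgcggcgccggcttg
PSMB1 (chr6:170553284-170553383, minus strand): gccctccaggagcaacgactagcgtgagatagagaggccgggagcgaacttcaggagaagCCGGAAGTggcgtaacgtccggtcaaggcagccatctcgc
PSMD13 (chr11:236900-236999, plus strand): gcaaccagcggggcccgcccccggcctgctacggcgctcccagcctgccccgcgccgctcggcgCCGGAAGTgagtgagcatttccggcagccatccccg
PSMF1 (chr20:1118526-1118625, plus strand): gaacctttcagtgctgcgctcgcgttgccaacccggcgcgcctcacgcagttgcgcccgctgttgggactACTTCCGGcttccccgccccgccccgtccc
PSMA6 (chr14:35292306-35292405, plus strand): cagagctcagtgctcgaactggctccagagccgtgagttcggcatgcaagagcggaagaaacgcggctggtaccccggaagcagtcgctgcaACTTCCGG
PSMD8 (chr19:38374495-38374594, plus strand): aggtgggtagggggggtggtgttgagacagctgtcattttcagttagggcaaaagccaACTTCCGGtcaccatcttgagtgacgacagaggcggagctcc
PSMB5 (chr14:23034877-23034976, minus strand): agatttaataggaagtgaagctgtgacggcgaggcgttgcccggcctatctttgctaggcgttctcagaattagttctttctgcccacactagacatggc
PSMB8 (chr6:32844024-32844123, minus strand): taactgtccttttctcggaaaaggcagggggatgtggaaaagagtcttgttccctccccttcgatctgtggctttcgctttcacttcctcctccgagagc

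PHF20 had a promoter peak at 22 of the 48 proteasome genes (45.8%, Wilson interval 32.6% to 59.7%), where 20.7% of all protein-coding genes had one. PHF20L1 had a peak at 9 (18.8%, 10.2% to 31.9%), where the share over all protein-coding genes was 3.82%. Both proteins were found at 8 genes (16.7%, 8.70% to 29.6%), where 3.73% of all genes had both. PSMA3 was the single member in the PHF20L1 list without a PHF20 promoter peak, and 25 members were in neither list. The members' shares were thus 2.21 times the background for PHF20 and 4.90 times for PHF20L1. The PHF20L1 calls rest on narrow peaks: with peaks of at least 300 bp, 3 members remained in its list (6.25%, beside 2.27% of all genes, a ratio of 2.75). No test was made of these ratios, since the genes are members of a chosen set and not replicates, and nothing is claimed to be particular to the set.

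**Figure D1:**
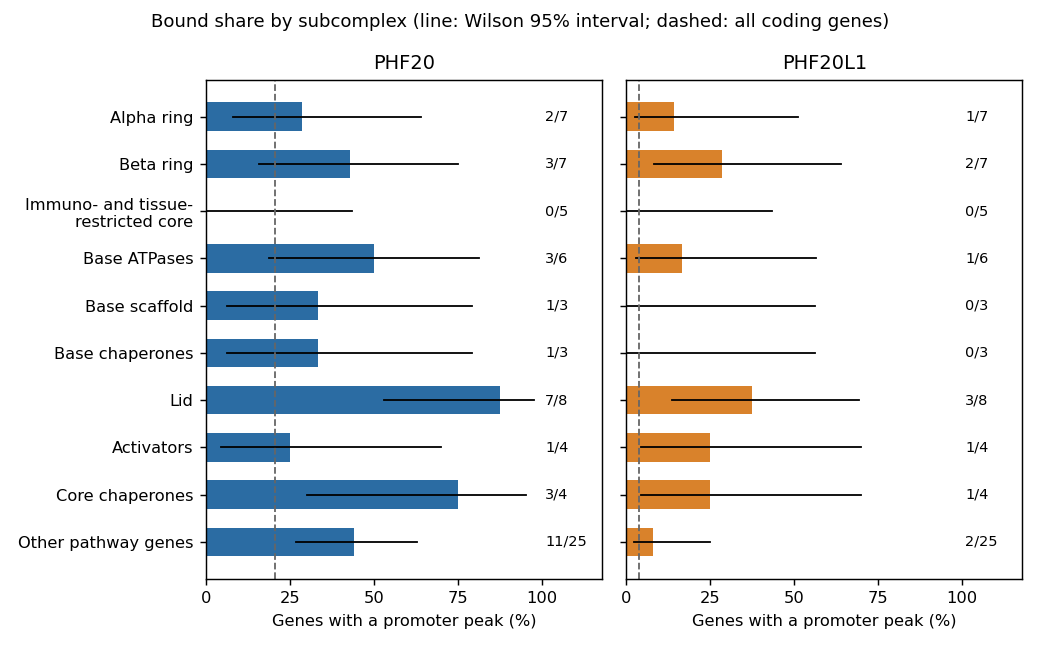
Share of genes with a promoter peak (x axis, percent) in each group of proteasome genes (y axis), for PHF20 on the left and PHF20L1 on the right. Bars are shares, black lines Wilson 95% intervals, dashed lines the share of all protein-coding genes (20.7% and 3.82%), and the numbers at the right give bound genes over genes in the group. The lid has the longest PHF20 bar of the groups drawn (7 of 8), PSMF1 as a group of 1 gene is not drawn, and no immunoproteasome or tissue-restricted core gene was bound (0 of 5).

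Among the 19 core genes, 5 were PHF20-bound (26.3%, 11.8% to 48.8%) and 3 were PHF20L1-bound (15.8%, 5.52% to 37.6%). Of the 20 cap genes, 12 were PHF20-bound (60.0%, 38.7% to 78.1%) and 4 were PHF20L1-bound (20.0%, 8.07% to 41.6%). The intervals of core and cap overlapped for either protein. Over all protein-coding genes the shares were 20.7% for PHF20 and 3.82% for PHF20L1. These are the background for the group counts here and below. The core interval for PHF20 held 20.7%, so the core share was near the background, while the cap interval lay above it. Of the 4 activator genes 1 was bound, PSME3, and it was in both lists. The inhibitor gene PSMF1 was PHF20-bound, and of the 4 core chaperone genes 3 were PHF20-bound (75%, 30.1% to 95.4%) and 1 was PHF20L1-bound.

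In the alpha ring, PSMA1 and PSMA6 were PHF20-bound and PSMA3 was PHF20L1-bound, while PSMA2, PSMA4, PSMA5 and PSMA7 were in neither list. The PSMA1 peak was 713 bp wide and the PSMA6 peak 705 bp, and both spanned the canonical TSS. The PHF20L1 peak at PSMA3 (chr14:58244917-58245200, 284 bp) began 74 bp downstream of the TSS, and 25 of its bases were exonic, with the rest in an intron. The nearest PHF20 peak was 43297 bp from any PSMA3 promoter window, at ACTR10.

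In the beta ring, PSMB1, PSMB2 and PSMB7 were PHF20-bound, and PSMB3, PSMB4, PSMB5 and PSMB6 were not. PSMB7, which carries the trypsin-like activity, had a PHF20 peak (chr9:124414832-124415830, 999 bp) that enclosed a PHF20L1 peak (chr9:124415207-124415406, 200 bp). That PHF20L1 peak started 36 bp downstream of the TSS and had the smallest width found in its list. PSMB2, a non-catalytic ring subunit, had a PHF20 peak 1016 bp wide centred 10.5 bp downstream of its TSS.

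PSMB1, another non-catalytic subunit, did not have the 2 proteins at the same place. Its PHF20L1 peak (chr6:170553071-170553290, 220 bp) lay from 17 to 236 bp downstream of the TSS, and 161 of its bases were exonic. The PHF20 peak counted for this gene (chr6:170554070-170555176, 1107 bp) lay from 1869 to 763 bp upstream. Its centre was 18 bp from the nearest TSS, that of the divergent neighbour TBP, the TATA-binding protein gene, and it overlapped a different PHF20L1 peak over 268 bp. With peak centres in the promoter window, PSMB1 left the PHF20-bound genes, so that call rests on the width of the window.

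The immunoproteasome subunits PSMB8, PSMB9 and PSMB10 replace the catalytic subunits in cells exposed to interferon, and PSMB11 and PSMA8 are forms of thymus and testis. None of these 5 genes had a promoter peak of either protein (Wilson upper limit 43.4%, and 3 counts would be 60.0%). Of the 14 constitutive core genes, 5 were PHF20-bound (35.7%, 16.3% to 61.2%) and 3 were PHF20L1-bound. From the promoter windows to the nearest PHF20 peak the distance was 775784 bp for PSMB8, 764866 bp for PSMB9, 41358 bp for PSMB10, 263699 bp for PSMB11 and 1705639 bp for PSMA8. Their direct constitutive counterparts were mostly unbound as well. The distance was 270181 bp for PSMB5, 4851 bp for PSMB6 and 37992 bp for PSMA7, and only PSMB7, the counterpart of PSMB10, was bound. The comparison of the 5 genes with these counterparts therefore differs by a single bound gene, and most of the bound constitutive genes are ones without an immunoproteasome form. The peak nearest to PSMB6 was 214 bp wide and lay near GLTPD2, and no other unbound member had a PHF20 peak within 5000 bp of its window.

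The interferon-induced activators PSME1 and PSME2, which form a mixed ring on the core, were unbound, with distances of 50858 and 40308 bp to the nearest PHF20 peak. PSME4, a large nuclear activator, was unbound too, at 82827 bp. PSME3, whose rings act in the nucleus, had a PHF20 peak (chr17:42832691-42833817, 1127 bp) around a PHF20L1 peak (chr17:42833045-42833465, 421 bp). The TSS nearest to the centre of both peaks was a start of BECN1, an autophagy gene on the other strand, at 78 bp (PHF20) and 77 bp (PHF20L1). Another BECN1 start is 47 bp from the PSME3 TSS, so the peaks cannot be assigned to one of these genes by position. A second PHF20 peak (903 bp) lay at an alternative start of PSME3, centred 9183 bp upstream of the canonical one and nearest to another BECN1 start.

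Of the 6 ATPase genes of the base, PSMC2, PSMC3 and PSMC6 were PHF20-bound and PSMC1, PSMC4 and PSMC5 were not. PSMC2 had a PHF20 peak across its canonical TSS (chr7:103346999-103348259, 1261 bp) that met no PHF20L1 peak. Another PHF20 peak (chr7:103344240-103345319, 1080 bp) and the PHF20L1 peak (chr7:103344653-103344912, 260 bp) were counted through an alternative start and were centred 2863.5 and 2860.5 bp upstream, at the TSS of DNAJC2. The PHF20L1 call for PSMC2 was lost with canonical TSSs alone. PSMC3 (915 bp) and PSMC6 (991 bp) each had a single PHF20 peak over the TSS. Of the base scaffold and ubiquitin-receptor genes, PSMD1 was PHF20-bound (991 bp), while PSMD2 and PSMD4 were not. PSMD2 was 5888 bp from a PHF20 peak at EIF4G1.

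The lid genes were grouped from the cap after the values were seen, and no test is given for them. Of the 8 lid genes named PSMD, 7 were PHF20-bound (87.5%, 52.9% to 97.8%), and of the 9 genes of the base without its chaperones 4 were (44.4%, 18.9% to 73.3%), with overlapping intervals. PSMD8 was the one lid gene without a peak, 22080 bp from the nearest. PHF20L1 was found at 3 of the lid genes (37.5%, 13.7% to 69.4%) and at 1 of the 9 base genes. Of the base chaperones, which guide ATPase assembly and leave before the cap is complete, PSMD9 had a PHF20 peak (1050 bp), and PSMD5 and PSMD10 had none.

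PSMD7, the partner of PSMD14 in the lid, had a PHF20 peak of 2114 bp (chr16:74295519-74297632). It ranked 2 by width among the 3562 PHF20 peaks at promoters of protein-coding genes. It began 1295 bp before the TSS, ended 818 bp after it and enclosed the PHF20L1 peak (chr16:74296315-74296693, 379 bp), which lay wholly upstream of the gene. Both centres were nearest to starts of PSMD7-DT, a noncoding gene on the opposite strand, at 42.5 bp (PHF20) and 6 bp (PHF20L1). The PSMD7-DT start closest to the TSS of PSMD7 is a different one, 52 bp from it. PSMD14, the deubiquitinase that strips ubiquitin from the substrate, had a PHF20 peak of 1190 bp (chr2:161307854-161309043) and, inside it, a PHF20L1 peak of 419 bp (chr2:161308403-161308821). PSMD12, a scaffold subunit of the lid, had a PHF20 peak of 820 bp (chr17:67366133-67366952) around a PHF20L1 peak of 299 bp (chr17:67366334-67366632). In PSMD12 and PSMD14 the PHF20L1 peaks crossed the TSS and held all the exonic bases that the wider PHF20 peaks held, 166 and 180.

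The remaining lid genes had PHF20 peaks of 572 bp (PSMD3, chr17:39980656-39981227), 741 bp (PSMD6), 819 bp (PSMD11) and 777 bp (PSMD13), all across the canonical TSS. PSMD13 starts 45 bp from the divergent deacetylase gene SIRT3, and its peak was centred 3 bp from its own start.

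Of the core chaperones, PSMG2, PSMG3 and PSMG4 were PHF20-bound and PSMG1 was not, with the largest distance to a PHF20 peak of any member (2187805 bp). PSMG2 had a wide peak over its TSS (chr18:12702231-12703583, 1353 bp) and a second one (chr18:12656996-12657642, 647 bp) through a distant alternative start, near SPIRE1. PSMG3 had a PHF20 peak of 796 bp (chr7:1569671-1570466) around a PHF20L1 peak of 298 bp (chr7:1569976-1570273), both nearest to the divergent noncoding PSMG3-AS1. PSMG4 was counted only through an alternative start, with a peak centred 27395.5 bp upstream of the canonical TSS. It was the narrowest PHF20 peak at a member (chr6:3231406-3231697, 292 bp). The PSMF1 peak was 948 bp wide and spanned the TSS.

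**Figure D2:**
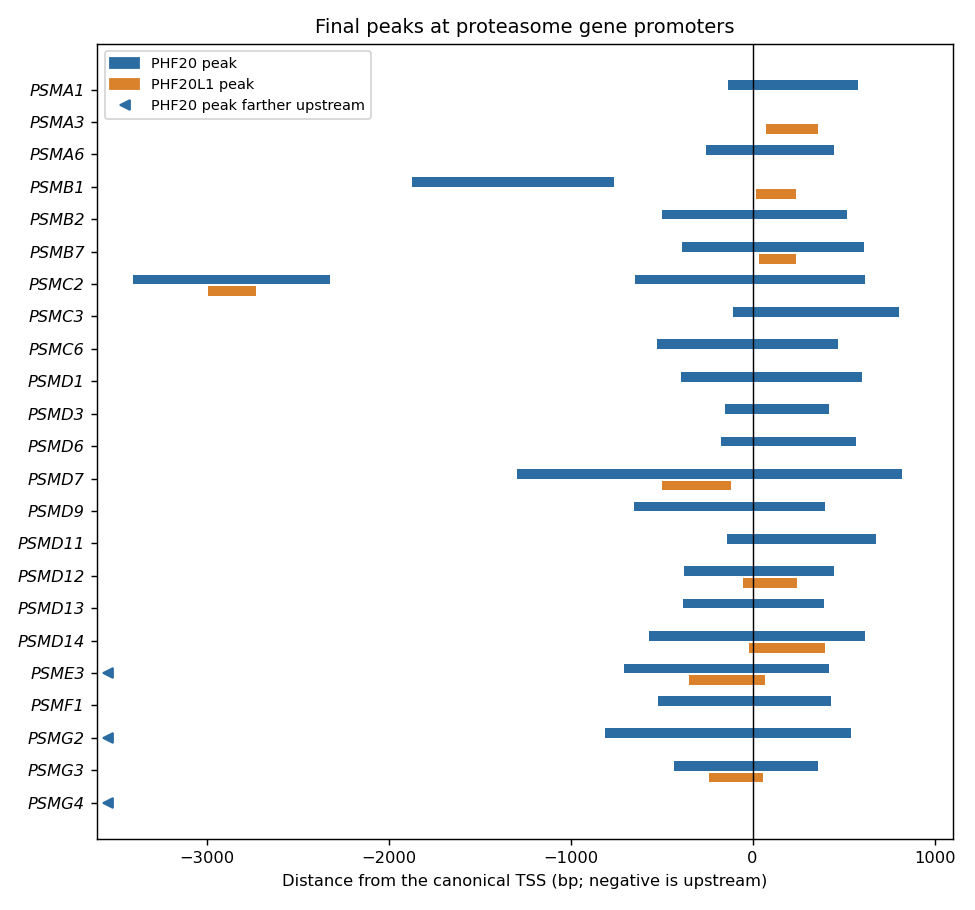
Position of each final peak relative to the canonical TSS (x axis, bp, negative upstream, drawn in the direction of the gene) at the 23 proteasome genes with a promoter peak of either protein (y axis). Bars are peaks from start to end, blue for PHF20 and orange for PHF20L1, and arrowheads mark PHF20 peaks beyond the left edge. Most PHF20 bars cross the vertical line at 0, and 7 of the 9 PHF20L1 bars lie inside a PHF20 bar.

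The 22 genes held 25 PHF20 peaks, of which 20 spanned the canonical TSS and 17 had the member's own TSS as the nearest. Of the 20 centred within 1000 bp of the canonical TSS, 12 were centred downstream and 8 upstream, with a median of 17 bp downstream. Of the 9 PHF20L1 peaks at members, which were narrower, 4 spanned the canonical TSS. Of the 8 centred within 1000 bp of it, 5 were centred downstream and 3 upstream. Shares over all peaks are not given for these positions. Among all protein-coding genes, 747 of the 766 that were PHF20L1-bound had a PHF20 promoter peak too. At members, 7 of the 9 PHF20L1 peaks lay wholly inside a PHF20 peak. The exceptions were PSMA3 and PSMB1.

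PHF20 peaks at proteasome genes had a median width of 948 bp (292 to 2114 bp), where the median over all 3562 PHF20 peaks at promoters of protein-coding genes was 635 bp (quartiles 416.25 and 920 bp), and 23 of the 25 were wider than that median. The 9 PHF20L1 peaks had a median of 298 bp (200 to 421 bp) beside 323 bp over 615 peaks, and 3 were wider than that median. The PHF20 peaks at members with an overlapping PHF20L1 peak had a median of 1093.5 bp (n = 8, 796 to 2114 bp), and the others 903 bp (n = 17, 292 to 1353 bp), with overlapping ranges. Wide calls were thus common for PHF20 at these genes and not for PHF20L1. Peak height is not in the lists, so width is the only measure of size here.

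**Figure D3:**
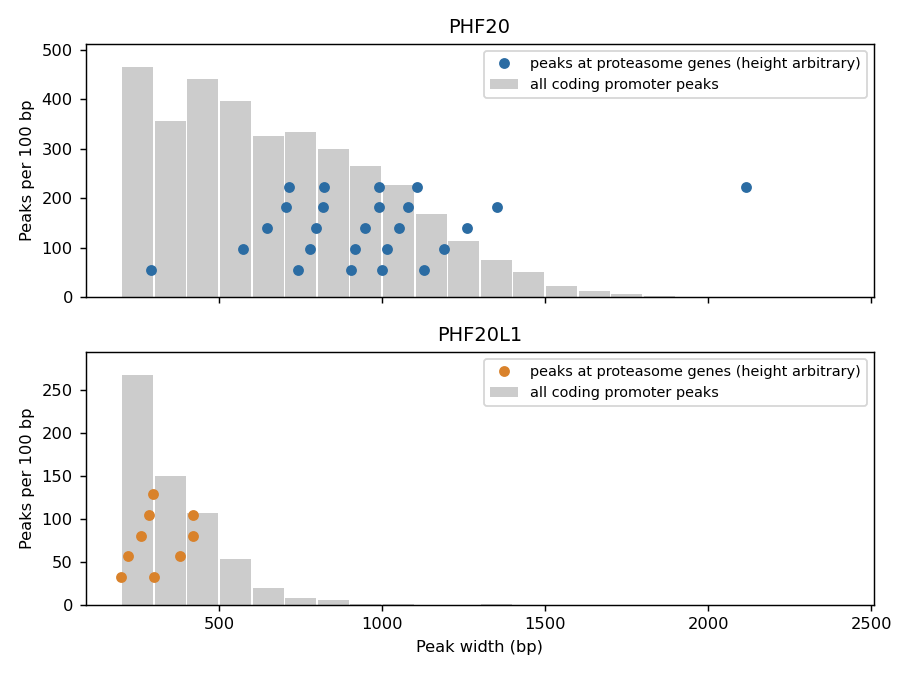
Widths (x axis, bp) of the peaks at proteasome genes, drawn as points whose height has no meaning, over a histogram of all peaks at promoters of protein-coding genes (y axis, peaks per 100 bp), with PHF20 above and PHF20L1 below. Most PHF20 points lie in the wider part of the histogram (medians 948 and 635 bp), and the PHF20L1 points lie among the bulk of theirs (298 and 323 bp).

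Promoter class and neighbouring genes were compared next. In the 300 bases from 250 before to 50 from the TSS on, 41 members (85.4%) were CpG-rich, with a GC content of at least 50% and an observed-to-expected CpG ratio of at least 0.6, as were 65.5% of all protein-coding genes. Of the CpG-rich members 20 were PHF20-bound (48.8%), beside 28.6% of all CpG-rich genes, and 7 were PHF20L1-bound (17.1%), beside 5.09%. The part of CpG content in the members' shares was not tested beyond this split. The 7 members that were not CpG-rich were PSMB1, PSMB10, PSMB11, PSMC1, PSMC2, PSMD8 and PSME2, of which PSMB1 and PSMC2 were bound by both proteins (28.6% for each protein, beside 5.71% of all such genes for PHF20 and 1.42% for PHF20L1). As counted, the PHF20 share among members was higher at CpG-rich promoters and the PHF20L1 share lower, on 7 genes. The PHF20 peak of PSMB1, at TBP, and the PHF20L1 peak of PSMC2, at DNAJC2, lay outside these 300 bases. Peaks that met the bases measured were left at PSMC2 for PHF20 and at PSMB1 for PHF20L1. The order therefore depends on how peaks are assigned to genes.

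A TSS of another gene on the opposite strand lay within 1000 bp upstream at 17 members (35.4%), beside 23.4% of all protein-coding genes. PHF20 was found at 9 of these 17 (52.9%) and at 13 of the other 31 (41.9%). Over all protein-coding genes the shares were 36.8% with such a neighbour and 15.8% without. The bound pairs included PSMB1 with TBP, PSME3 with BECN1, PSMD13 with SIRT3 and PSMG2 with CEP76, and the unbound ones PSMB9 with the peptide transporter gene TAP1, PSMC5 with FTSJ3 and PSME2 with RNF31. PHF20-bound members had a median of 11 annotated TSSs and the others 6.5, so the PHF20-bound genes also had more windows in which a peak could fall. Over all protein-coding genes these medians were 7 and 5. For PHF20L1 the order among members was the other way, with a median of 6 for bound genes and 8 for the others. Over all protein-coding genes the PHF20L1-bound had the higher median, 8 beside 5 for the others.

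The 8-mer ACTTCCGG, searched on both strands in the same 300 bases, was present at 13 of 48 members (27.1%), beside 6.14% of all protein-coding genes. It was at 9 of the 22 PHF20-bound members (40.9%, beside 16.5% of all PHF20-bound genes), at 6 of the 9 PHF20L1-bound members (66.7%), and at 4 of the 26 without PHF20 (15.4%, beside 3.44%). The 4 were PSMA8, PSMC1, PSMD8 and PSME4. For this and the other sequences, no share over all PHF20L1-bound protein-coding genes was computed. Counts among PHF20L1-bound members therefore stand without that background. Counting the TSS base as 1, matches of the 8-mer began between base -80 and base 17, and PSMG3 had 2. Of the 6 PHF20L1-bound members with the 8-mer, PSMD12, PSMD14 and PSMG3 had it inside the PHF20L1 peak. At PSMB7 and PSMC2 it lay in a PHF20 peak only, and the PHF20L1 peak of PSMC2 was at DNAJC2. At PSMB1 the 8-mer, 16 bases before the TSS, was in neither of the gene's peaks. Within 250 bases of the peak centre it was found for 6 of 9 PHF20L1 peaks at members (66.7%). Over all PHF20L1 peaks at promoters of protein-coding genes the share was 23.6%. These bases reach past the ends of the PHF20L1 peaks at members, which were 200 to 421 bp wide. A match counted this way can therefore lie outside the peak. Earlier work on these peak lists had already found this 8-mer frequent in them, so its presence at bound members is not independent support, and a match does not show that a factor binds.

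Other sequences gave smaller differences or none over the 48 members. CACGTG was at 3 members (6.25%, beside 8.76%), CACGTGAC at 0 of 48 (3 counts would be 6.25%, beside 3.46%), and GCGCATGC at 2 (4.17%, beside 4.27%). ATGGCGG was at 7 (14.6%, beside 7.82%) and CCAAT at 20 (41.7%, beside 36.1%). CCAAT was at 6 of the 9 PHF20L1-bound members (66.7%), the same count as ACTTCCGG. Within 250 bases of the peak centre, inside the peak or not, CCAAT was found for 5 of 9 PHF20L1 peaks at members (55.6%). Over all PHF20L1 peaks at promoters of protein-coding genes the share was 35.8%. TGACNNNGC, the loose form of the antioxidant response element read by NFE2L1 and NFE2L2, was at 14 members (29.2%, beside 14%), 4 of the 22 with a PHF20 peak (18.2%) and 10 of the 26 without (38.5%). Over all protein-coding genes it was at 14.6% of the PHF20-bound and 13.9% of the others. Within 250 bases of the peak centre TGACNNNGC was found for 9 of 25 PHF20 peaks at members (36%). Over all PHF20 peaks at promoters of protein-coding genes the share was 20.8%, so its order depends on the bases searched.

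The stricter TGACTCA, shared by AP-1 and antioxidant response sites, was at 1 promoter of the 48 (2.08%, beside 3.57%) in the 300 bases but was found inside member peaks. A search of the first 500 bases from the TSS was therefore added after seeing the data. It found TGACTCA at 12 members (25%), beside 3.75% of all protein-coding genes, and the longer TGACTCAGC at 6 (12.5%), beside 0.379%. In the 500 bases upstream TGACTCA was at 2 members (4.17%, beside 6.07%). The 13 downstream matches began between bases 204 and 449, 9 of them between 200 and 260, all in an intron of the canonical transcript, and 10 read TGACTCA on the strand opposite to the gene. The 12 genes were PSMA3, PSMA5, PSMB7, PSMC5, PSMC6, PSMD1, PSMD2, PSMD4, PSMD7, PSMD11, PSMD12 and PSMD14. Of these, 9 belong to the cap.

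Downstream TGACTCA was at 7 of the 22 PHF20-bound members (31.8%), at 5 of the 26 others (19.2%) and at 5 of the 9 PHF20L1-bound members (55.6%). Over all protein-coding genes the order for PHF20 was the other way, with 2.87% of PHF20-bound genes and 3.98% of the others. The share over all PHF20L1-bound protein-coding genes was not computed. Of the 13 matches 8 lay inside a PHF20 peak, and 3 also lay inside a PHF20L1 peak, those of PSMB7, PSMD12 and PSMD14. The other 2 PHF20L1-bound genes with a match, PSMA3 and PSMD7, had it outside the PHF20L1 peak. Within 250 bases of the peak centre, TGACTCA was found for 6 of 25 PHF20 peaks at members (24.0%) and for 4 of 9 PHF20L1 peaks (44.4%). Over all peaks at promoters of protein-coding genes the shares were 3.68% for PHF20 and 4.23% for PHF20L1. These bases reach past the ends of the PHF20L1 peaks, so the PSMA3 match, outside its peak, is among the 4. The downstream bases were searched because TGACTCA had been seen inside member peaks, so these counts are not independent support. Of the 25 PHF20 peaks, 20 spanned the canonical TSS, with a median width of 948 bp over the 25, so a match near the TSS of a bound gene often falls inside one. The lines below show 8 of these intronic sites, 29 bases each on hg38 and on the strand that reads TGACTCA. They are all 6 sites of the longer form and the other 2 inside a PHF20L1 peak, so the bases after TGACTCA are more alike here than over the 13 matches. The sites of PSMA3 and PSMA5 begin at bases 367 and 344, outside the stretch from 200 to 260. Capitals mark TGACTCA, or TGACTCAGC where the longer form is present. PSMA3, PSMA5 and PSMD2 had no PHF20 promoter peak.
PSMB7 (chr9:124415216-124415244, minus strand): cgcggctagtgTGACTCAggggaatcagg
PSMD12 (chr17:67366354-67366382, plus strand): gctccgcgccgTGACTCAGCccctggcgc
PSMD14 (chr2:161308668-161308696, minus strand): gctgggcaacgTGACTCAggaaagcacgg
PSMD7 (chr16:74297021-74297049, minus strand): cagcgtgcccgTGACTCAGCagcggctgc
PSMD1 (chr2:231057091-231057119, minus strand): gtcaccggcccTGACTCAGCtaaaagccg
PSMA3 (chr14:58245198-58245226, minus strand): gctgaagaaagTGACTCAGCaatccaaag
PSMA5 (chr1:109426088-109426116, plus strand): ggacccaggggTGACTCAGCggtaggaca
PSMD2 (chr3:184299433-184299461, minus strand): cggagccgccgTGACTCAGCcccgcagcc

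**Figure D4:**
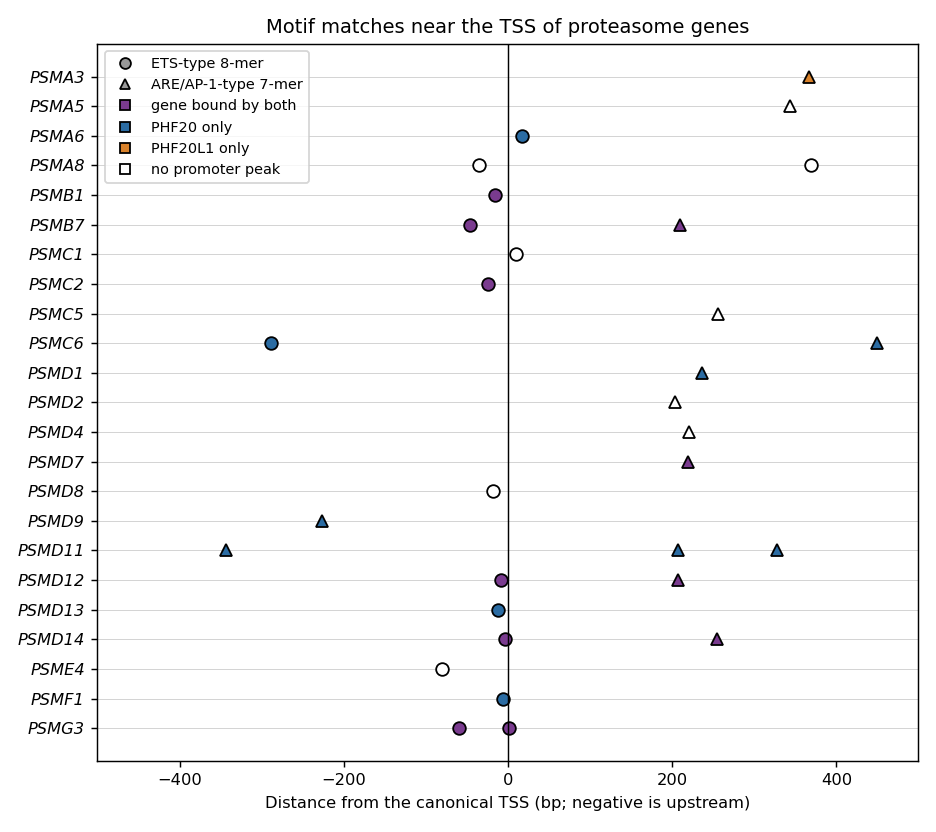
Position of each match (x axis, bp from the canonical TSS, negative upstream, up to 500 bp each way) of the ETS-type 8-mer ACTTCCGG (circles) and of TGACTCA (triangles) at the proteasome genes that hold either (y axis), on both strands. Fill gives the promoter peaks of the gene. Circles lie mostly just upstream of the TSS and triangles mostly between 200 and 260 bp downstream, and both kinds occur at bound and unbound genes.

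A list of 25 other genes of the pathway, with further subunits, maturation factors, deubiquitinases, shuttles and regulators, was read in the same way. PHF20 was at 11 of them (44%, 26.7% to 62.9%) and PHF20L1 at 2 (8.0%, 2.22% to 25%), beside the 20.7% and 3.82% given above. PHF20 was found at SEM1, the small lid subunit (991 bp), at POMP, which drives core maturation (829 bp), and at USP14, a deubiquitinase that docks on the base (737 bp). It was also at the ubiquitin ligase gene UBE3C (417 bp), at PITHD1 (917 bp), and at the segregase gene VCP (288 bp) with those of its cofactors UFD1 (852 bp) and NPLOC4 (501 bp). Both proteins were at PSME3IP1, a partner of PSME3 (610 and 317 bp), and at the shuttle factor gene UBQLN1 (1228 and 283 bp). The genes without a peak included the ubiquitin receptor ADRM1 and NFE2L1, the transcription factor that raises proteasome genes when the proteasome is inhibited. NFE2L2 was counted through a distant alternative start only, with a 770-bp peak nearest to AGPS.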

How the data were processed

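HA ChIP-Seq of PHF20 and PHF20L1, tagged and over-expressed in U2OS cells, was analysed from the final peak lists, made from 8 libraries (5 ChIP, 3 input). Reads were aligned by the authors with Bowtie to hg38 (version 1.1.2 in the submitters' processing notes), retained unique, deduplicated reads, called peaks against input with MACS2 (2.2.7.1), removed blacklisted regions, and retained peaks of the best replicate that other replicates also showed. The authors used a looser p-value cutoff in the other replicates than in the best one. They left out a PHF20 replicate that failed peak calling and report that signal varied between the rest. The deposited values are positions in bp, with no count, height or score, and depth was not taken from them. The narrowest peak in each list was 200 bp, so short sites cannot be resolved further. There were 0 further columns of per-sample values.

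Peaks were compared with TSSs of GENCODE release 44, later than the authors' release, without mitochondrial genes. The canonical TSS is that of the transcript GENCODE tags as canonical. Shares carry Wilson 95% intervals, a count of 0 the share that 3 counts would give, and no p-value was computed. Motifs were searched on both strands of hg38. The overlap search was tested on simulated data, intervals with planted overlaps, as a check of the code only. Python 3.11.15, numpy 2.4.6, scipy 1.17.1 and matplotlib 3.10.9 were used. The symbol rule uses no measured value, but this gene set, its classes and the motifs were picked with earlier results of these data known. All members are accounted for, and positions are given for those with a PHF20L1 peak, the 3 widest and 3 narrowest PHF20 peaks, the immunoproteasome genes with their counterparts, and genes with a peak near the window. Alternatives changed the overlap rule, the TSSs, the window and the peak width. A published KANSL3 list and RNA-Seq data were not analysed here.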

Additional observations from a re-analysis of the deposited data

How the results depend on the processing

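The 7 main counts and shares were recomputed under 10 alternatives, and 59 of the 70 values stayed within 1.5 times the main one. With the outermost TSS of each gene alone, 5 members were bound by both proteins and 3 core genes by PHF20. With peaks of at least 300 bp, 3 members were PHF20L1-bound and 3 were bound by both, and the PHF20L1 share over all protein-coding genes was 2.27%. With only the wider peaks of each list, from its median width up, these values were 3, 3 and 2.11%, and the PHF20 share over all genes was 12.1%. Fewer peaks enter by construction under these width limits. With each peak given only to the gene of the nearest TSS, 5 members were PHF20L1-bound and 3 were bound by both (lost from the PHF20L1-bound genes were PSMC2, PSMD7, PSME3 and PSMG3, each with its peak nearest to the start of another gene). PHF20-bound members numbered 17 to 22 and cap genes 10 to 12 over the alternatives. TGACTCA was at 1 member in the planned window and at 12 in the downstream one added after seeing the data. No paired analysis was possible because each list merges its replicates into 1 set of positions. For the same reason no replicate could be left out, and the depth behind the narrow PHF20L1 calls is not known here.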
